A study of Homo sapiens with 6 samples.

Results

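The genes described here encode the core of the cullin-RING ubiquitin ligases and the machinery that adds NEDD8 to cullins or takes it off. They were chosen by name: 8 cullins, 2 RING partners, NEDD8 with its E1 and E2 enzymes (5 genes), 5 DCUN1 co-E3s, 2 CAND exchange factors, 9 genes of the COP9 signalosome, 1 NEDD8 protease and 4 linkers that join substrate modules to cullins. They are 36 of the 35810 genes with a matched transcript in the files. Levels of mRNA were measured in SPT5-AID cells, which derive from the DLD-1 colorectal adenocarcinoma line and carry an auxin-inducible degron on SPT5. All 6 libraries come from this genotype, and their labels name no auxin. In 3 libraries the cells carried a lentiviral shRNA against ARMC5 (shARMC5), and in 3 a nontargeting shRNA (shNT). The sources used here do not say which of the study's ARMC5 constructs was used. The study's methods describe N as biological replicates or genes tested, without saying whether the libraries came from separate infections, and P values measure the spread between these libraries.

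A cullin is a long scaffold protein. Its C-terminal end binds a small RING protein that recruits the ubiquitin-charged E2 enzyme, and its N-terminal end binds a substrate receptor, often through a linker. ARMC5 is a receptor of the BTB family, whose members bind CUL3 without a separate linker. The ligase is switched on when NEDD8, a ubiquitin-like protein, is attached to the cullin through its own E1 and E2 enzymes with help from DCUN1 proteins. The COP9 signalosome removes NEDD8, and CAND1 then binds the bare cullin so that receptors can be exchanged. The comparison asks whether the mRNAs of this shared machinery differed when the mRNA of 1 CUL3 receptor was reduced.

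The libraries held 26201112 to 40866478 reads on transcripts. ARMC5 was at 25.2 ± 1.95 CPM (normalized reads per 1000000; SD, n = 3) in shNT and 11.9 ± 1.09 CPM in shARMC5, so the labels and the targeted gene go together. Of the 10 colorectal epithelial markers fixed in the design, 9 had an entry in the files and 8 were above 1 TPM (transcripts per 1000000, a level per length) in every library, among them EPCAM, CDH1, VIL1 and CDX2, while CDX1 was at 0. Their summed TPM was 7574 to 8091 in shNT and 8561 to 8864 in shARMC5, and the part of this difference in the results below was not tested. Markers of fibroblasts (0 of 6) and endothelium (0 of 4) were not above 1 TPM in every library, and of 5 leukocyte markers CD68 was.

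Among the mRNAs of this machinery, CUL7 and CUL9 were called different between shARMC5 and shNT cells. In normalized reads, CUL7 fell by 15.2% and CUL9 fell by 14.02% in shARMC5 cells, but on the TPM scale the groups of both genes overlapped. With an offset for transcript length the log2 fold changes were -0.11 for CUL7 and -0.19 for CUL9 and neither was called, while the calls over all genes dropped from 1064 to 235. In such bulk RNA, fewer cells that express a gene and less of its RNA per cell cannot be told apart. Of the 36 genes, 35 had at least 10 reads in at least 3 libraries and were tested, and CAND2 was not. With edgeR's test and an adjusted P value under 0.1, 2 of the 35 were called (5.71%), 0 higher and 2 lower. Over all 13737 genes tested, 1064 were called (7.75%), 610 higher (4.44%) and 454 lower (3.3%), a split that was 458 higher and 495 lower with library size as the only scaling, so the share of called members is close to that background. At an unadjusted P value under 0.05, 7 members passed. The share of all genes under that threshold was not counted, so this number says nothing about the members as a set. The levels of the 3 shARMC5 libraries lay wholly above or wholly below those of the 3 shNT libraries for 9 members (25.7%), 6 above and 3 below, against 23.4% of all genes tested. The log2 fold change was positive for 24 members and negative for 11, with a median of 0.02 against 0.00 for all genes tested. The median of its size without sign was 0.06, against 0.08 for all genes tested and 0.06 for the 9332 genes above 10 CPM.

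Of the 33 members that were not called, 29 had a 95% interval of the log2 fold change that lay within 0.2 of 0 on both sides. The widest interval was that of SENP8, from -0.23 to 0.35. A P value that misses the threshold does not show that levels were equal. The intervals hold for the fit without a length offset. With the offset in edgeR, UBA3 at -0.13 (adjusted P = 0.576) and DCUN1D1 at 0.15 (adjusted P = 0.480) lay outside their own intervals, and neither was called.

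**Figure D1:**
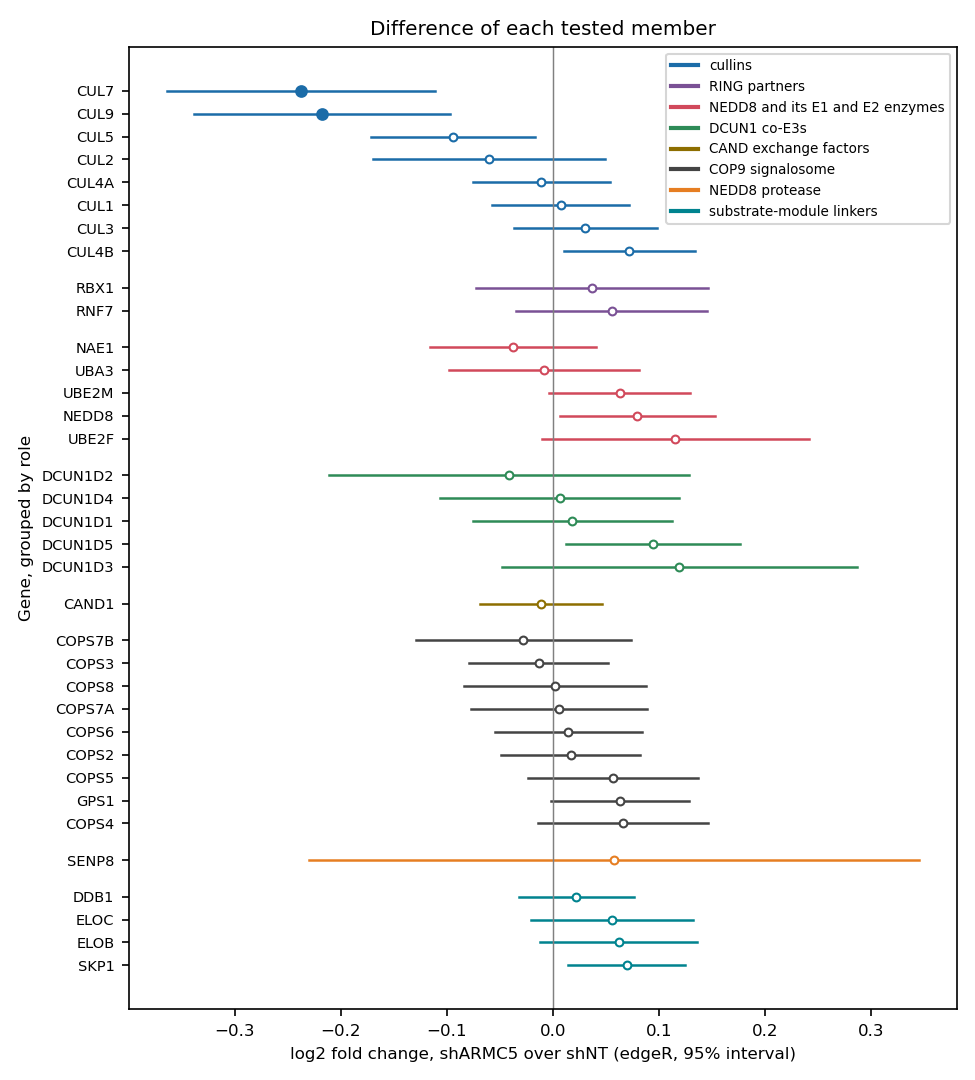
Log2 fold change of each tested gene (shARMC5 over shNT, horizontal axis) with its 95% interval from edgeR, grouped by role. Filled points mark the 2 genes called at an adjusted P value under 0.1, CUL7 and CUL9, and the other 33 points lie between -0.09 and 0.12.

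Promoter sequences are shown for 5 members so that the start regions behind the values can be read: CUL9, a called gene, CUL3, the cullin to which ARMC5 belongs, CAND1, which shares an uncommon motif with CUL3, and NEDD8 and SKP1, whose groups did not overlap. They come from RefSeq on GRCh38.p14, run 5′ to 3′ from 250 bases before the start to 50 bases after it, and capitals mark motif matches. CUL7, ELOC and COPS5 had no entry, and 33 of 36 members did.
CUL9 promoter (chr6:43181946-43182245, plus strand): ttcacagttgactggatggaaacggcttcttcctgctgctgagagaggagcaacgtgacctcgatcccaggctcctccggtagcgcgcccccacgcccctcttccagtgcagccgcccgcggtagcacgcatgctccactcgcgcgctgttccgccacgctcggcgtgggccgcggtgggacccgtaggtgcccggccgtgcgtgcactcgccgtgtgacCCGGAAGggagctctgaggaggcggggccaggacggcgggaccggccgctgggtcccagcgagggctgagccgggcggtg
CUL3 promoter (chr2:224585314-224585613, minus strand): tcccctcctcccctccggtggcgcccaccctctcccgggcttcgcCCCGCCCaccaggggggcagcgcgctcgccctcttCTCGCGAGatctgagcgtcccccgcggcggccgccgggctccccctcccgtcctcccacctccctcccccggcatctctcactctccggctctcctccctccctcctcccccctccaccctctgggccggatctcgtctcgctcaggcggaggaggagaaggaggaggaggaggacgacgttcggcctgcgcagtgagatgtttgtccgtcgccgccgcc
CAND1 promoter (chr12:67269108-67269407, plus strand): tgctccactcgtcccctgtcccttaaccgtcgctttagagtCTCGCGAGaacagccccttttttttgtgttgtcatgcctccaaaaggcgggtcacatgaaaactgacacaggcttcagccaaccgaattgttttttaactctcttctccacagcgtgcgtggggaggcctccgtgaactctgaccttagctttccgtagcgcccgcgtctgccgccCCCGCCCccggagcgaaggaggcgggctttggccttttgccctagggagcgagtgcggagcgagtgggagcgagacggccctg
NEDD8 promoter (chr14:24232318-24232617, minus strand): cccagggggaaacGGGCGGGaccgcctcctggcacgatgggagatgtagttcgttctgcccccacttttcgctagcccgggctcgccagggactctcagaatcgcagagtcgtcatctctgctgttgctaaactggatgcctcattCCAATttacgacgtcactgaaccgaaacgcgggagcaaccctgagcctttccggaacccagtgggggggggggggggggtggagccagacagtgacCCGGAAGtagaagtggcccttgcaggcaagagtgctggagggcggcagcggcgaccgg
SKP1 promoter (chr5:134176901-134177200, minus strand): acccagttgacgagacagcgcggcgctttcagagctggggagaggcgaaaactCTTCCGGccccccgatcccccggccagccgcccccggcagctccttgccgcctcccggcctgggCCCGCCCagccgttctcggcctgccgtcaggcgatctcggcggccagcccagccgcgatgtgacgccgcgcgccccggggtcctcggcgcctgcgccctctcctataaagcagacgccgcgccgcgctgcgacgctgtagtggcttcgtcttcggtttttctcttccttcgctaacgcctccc

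Motifs were searched as exact letters on both strands, and no motif contains another. CTCGCGAG, the core of the ZBTB33 motif, stood in 3 of the 33 member promoters (9.09%), CUL3, CAND1 and COPS3, and in 1.06% of all 27305 promoters. The ETS motif CCGGAAG stood in 8 members (24.2%), CUL4B, CUL9, NEDD8, UBE2F, DCUN1D3, DCUN1D5, COPS7A and SKP1, against 10.7% of all promoters. The SP1 motif GGGCGGG stood in 54.5% of members against 32.9%. For the NFY motif CCAAT the shares were 33.3% and 35.7%, for the cAMP response element TGACGTCA 3.03% and 1.98%, and for the E-box CACGTG 6.06% and 7.43%. The 27305 promoters were not limited to the 13737 genes with enough reads for a test, whereas of the members only CAND2 was untested. The shares therefore do not compare like sets. The motifs were chosen after seeing the data, and these matches describe the letters in the window and were not tested.

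Among the 8 cullins, the levels per length spanned a wide range. CUL3 led with 90.7 ± 4.33 TPM (SD, n = 3) in shNT, followed by CUL4A at 88.6 ± 7.92 TPM, and the shNT values of these neighbours overlapped. Below them came CUL1 at 64.0 TPM, CUL4B at 53.6 TPM, CUL2 at 30.2 TPM, CUL5 at 24.3 TPM, CUL7 at 13.8 TPM and CUL9 at 9.27 TPM, each without overlap with the next in the shNT libraries. Per length, the cullins that were called are thus the least abundant ones. In normalized reads, on which the calls were made, CUL2 stood level with CUL7 in shNT, each at a mean of 51.1 CPM, and CUL2 was not called. The summed TPM of the 8 cullins was 375 ± 13.7 in shNT and 371 ± 10.4 in shARMC5, and the groups overlapped.

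**Figure D2:**
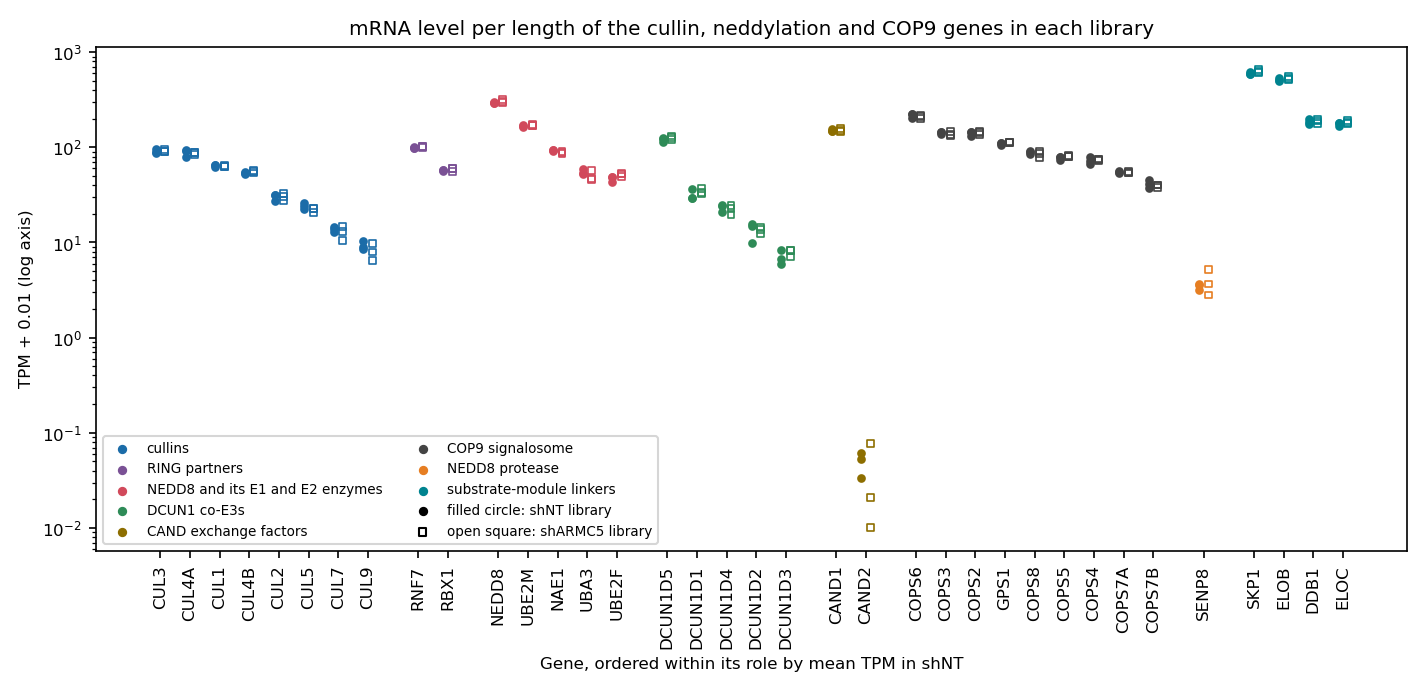
TPM (log axis, with 0.01 added so that CAND2 at 0 can be drawn) of the 36 genes in each of the 6 libraries. Within each role the genes are ordered by their mean in shNT, from SKP1 at 604 TPM down to CAND2 at 0.04 TPM, and neighbours such as CUL3 and CUL4A, COPS3 and COPS2, COPS5 and COPS4, or DDB1 and ELOC overlap in shNT.

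CUL7 is the scaffold that works with the F-box protein FBXW8 and forms the 3M complex with OBSL1 and CCDC8. The gene (ENSG00000044090) spans chr6:43037617-43053943 (GRCh38, minus strand), and 1007 to 1829 reads covered it in each library. In shNT it was at 52.2, 47.7 and 53.5 CPM, and in shARMC5 at 43.4, 46.4 and 39.9 CPM. Every shARMC5 library was below every shNT library, with a narrow gap between shNT replicate 2 and shARMC5 replicate 2. The means were 51.1 ± 3.06 and 43.2 ± 3.23 CPM (SD, n = 3), a log2 fold change of -0.24 (SE, its standard error, 0.06, 95% interval -0.36 to -0.11, adjusted P = 0.0319, edgeR). Of its partners, FBXW8 was at 0.01 on the log2 scale (adjusted P = 0.976, edgeR), and OBSL1 and CCDC8 had too few reads to be tested. These partners were named after their values were seen.

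CUL9, also called PARC, is a large cytoplasmic cullin with its own RING-type domain, and like CUL7 it binds p53. Its gene (ENSG00000112659) spans chr6:43182184-43224587 on the plus strand, with 685 to 1025 reads. It was at 30.7, 30.6 and 29.7 CPM in shNT and at 25.2, 25.99 and 27.2 CPM in shARMC5. The groups were apart, and the spread within each was small. The means were 30.3 ± 0.57 and 26.1 ± 0.998 CPM, a log2 fold change of -0.22 (SE 0.06, 95% interval -0.34 to -0.10, adjusted P = 0.0366, edgeR).

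**Figure D3:**
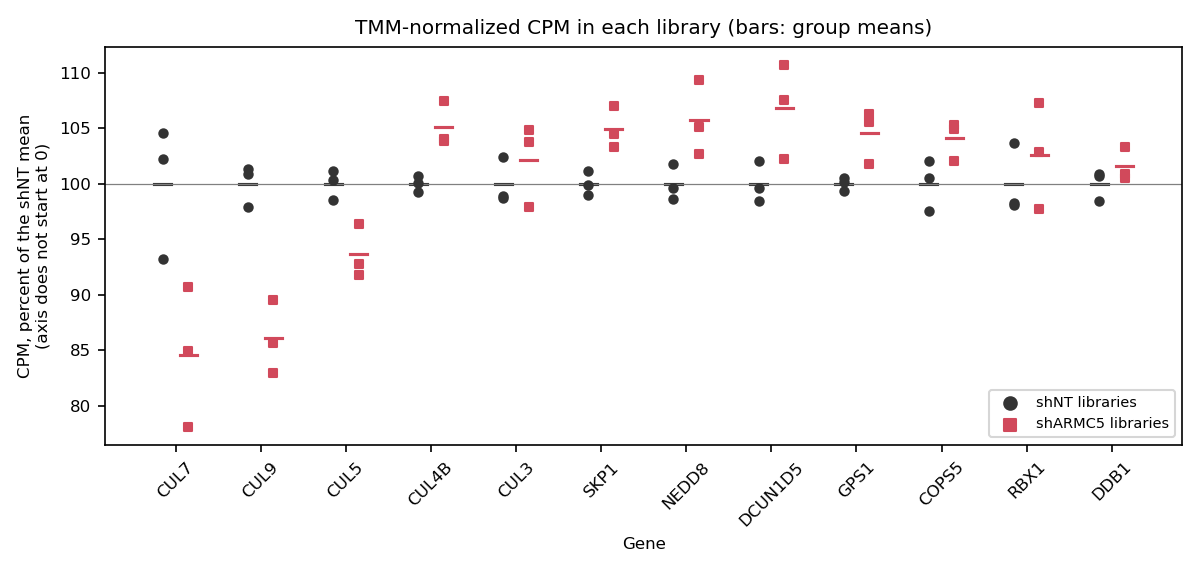
TMM-normalized CPM of 12 genes in each library as percent of the gene's shNT mean (the axis does not start at 0, and bars are group means). CUL7 and CUL9 lie furthest below 100 in the shARMC5 libraries, those of CUL5 lie less far below, and the 3 shARMC5 libraries of CUL4B, SKP1, NEDD8, DCUN1D5, GPS1 and COPS5 lie above their shNT libraries by small amounts.

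Both calls were lost with a length offset and when certain single libraries were left out. Per length, CUL7 was at 14.5, 13.0 and 13.9 TPM in shNT and at 14.6, 13.0 and 10.4 TPM in shARMC5, and CUL9 was at 8.47, 8.89 and 10.5 TPM in shNT and at 7.94, 9.75 and 6.49 TPM in shARMC5, so on this scale the groups of both genes overlapped. When the average transcript length was given to edgeR as an offset, CUL7 was at -0.11 (adjusted P = 0.723) and CUL9 at -0.19 (adjusted P = 0.675), and neither was called. The corresponding values without the offset were -0.24 and -0.22, and over all 13737 genes 235 were called with the offset against 1064 without it. Salmon placed 45.3 reads of CUL7 in shARMC5 replicate 1 on a retained-intron transcript of 749 bases (ENST00000478630), and the average effective length of CUL7 was 4199 bases in that library and 5003 to 5274 bases in the others. The average effective length of CUL9 ran from 3751 to 5749 bases across libraries, while its MANE Select transcript, the reference choice for the gene, held 81.0% of reads in shNT and 83.3% in shARMC5. Counted on the MANE Select transcript alone, a setting chosen after seeing the data, CUL7 stood at -0.26 and CUL9 at -0.18. That transcript held 99.9% of CUL7 reads in shNT and 98.6% in shARMC5, so for CUL7 a value near that of the whole gene was fixed beforehand. For CUL9 the value was weaker than the -0.22 of the whole gene. The transcript fit called 4 of 49809 transcripts, so the lack of a call there says little. CUL7 was not called without shNT replicate 1 (adjusted P = 0.144, edgeR) or shNT replicate 3 (adjusted P = 0.117), and CUL9 was not called without shNT replicate 1 (adjusted P = 0.126), shARMC5 replicate 1 (adjusted P = 0.128) or shARMC5 replicate 2 (adjusted P = 0.105). The log2 fold change was negative in all 15 alternatives of the gene fit, from -0.29 to -0.11 for CUL7 and from -0.25 to -0.19 for CUL9, with adjusted P values from 0.000252 to 0.770 and from 0.0187 to 0.675 (edgeR or DESeq2). DESeq2 without the offset called both. The exons of CUL7 share 329 bases, 6.09% of its MANE Select transcript, with KLC4 on the opposite strand.

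**Figure D4:**
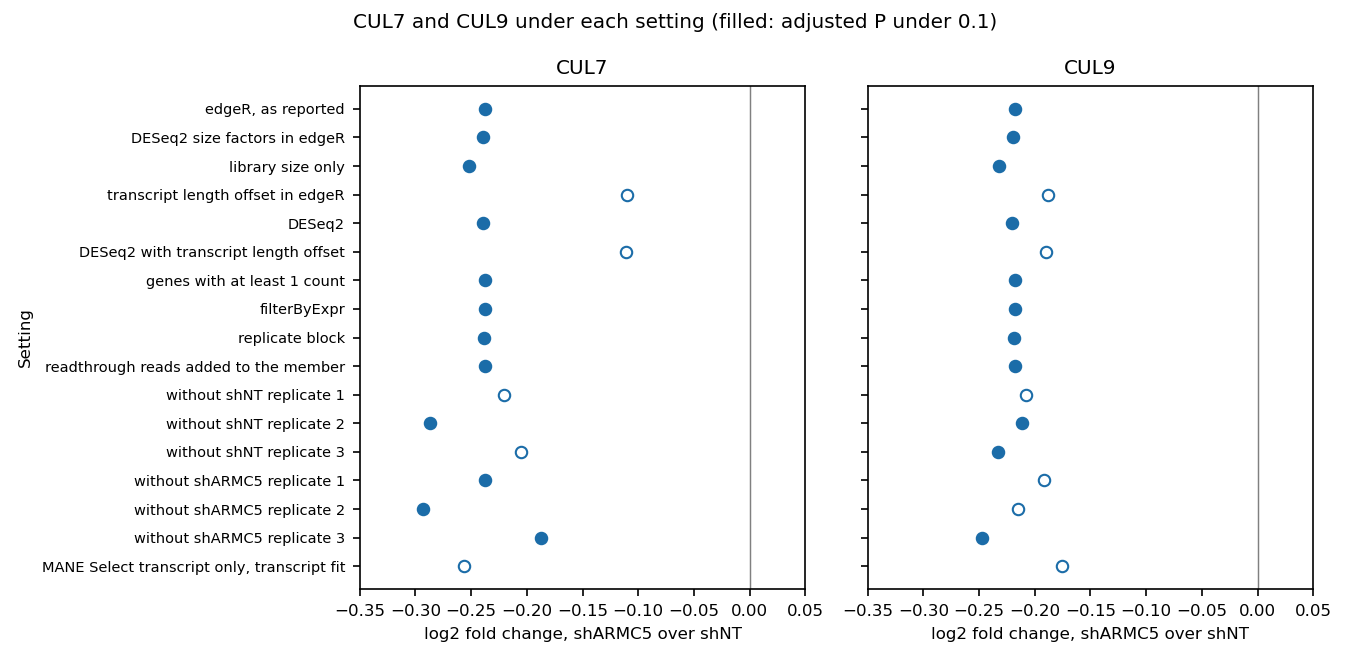
Log2 fold change of CUL7 (left) and CUL9 (right), shARMC5 over shNT, under each setting named on the vertical axis. Filled points have an adjusted P value under 0.1 and open points do not, and all points lie below 0, with CUL7 closest to 0 at -0.11 under the transcript length offsets.

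CUL7 and CUL9 are neighbours, 128 kb apart. The 4 tested genes between them, KLC4, MRPL2, PTK7 and SRF, were chosen for this look after the values of the cullins were seen. None of the 4 was called, and their log2 fold changes lay between -0.07 and 0.03, with a smallest adjusted P value of 0.669 (edgeR). Genes on the outer sides of the cullins were not examined as a set. KLHDC3 (chr6:43014103-43021298), from the list of other ligase genes, lies on the outer side of CUL7. It was at -0.09 (adjusted P = 0.168, edgeR) and was not called, but its shARMC5 libraries lay below its shNT libraries in CPM and TPM.

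The other cullins were not called. CUL5, which works with elongins B and C and SOCS-box receptors, was at 75.2, 77.2 and 76.6 CPM in shNT and at 70.0, 73.5 and 70.8 CPM in shARMC5. The groups did not overlap, and the log2 fold change was -0.09 (SE 0.04, unadjusted P = 0.0201, adjusted P = 0.172, edgeR). CUL4B, a scaffold of the DDB1 ligases, was at 145, 143 and 144 CPM in shNT and at 150, 154 and 149 CPM in shARMC5. These groups did not overlap either, with a log2 fold change of 0.07 (SE 0.03, adjusted P = 0.196, edgeR). Per length, the groups of both genes overlapped.

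CUL3, the scaffold of the BTB receptors and so of ARMC5, showed no difference larger than the spread between libraries. It was at 186, 179 and 179 CPM in shNT and at 177, 190 and 188 CPM in shARMC5. The groups overlapped, and the lowest of the 6 values was in shARMC5. The log2 fold change was 0.03 (SE 0.03, 95% interval -0.04 to 0.10, adjusted P = 0.677, edgeR), on 4743 to 7495 reads per library. Without shARMC5 replicate 1 CUL3 was at 0.06, and without shARMC5 replicate 2 at 0.01. CUL1, the F-box scaffold, was at 0.01, CUL4A at -0.01 and CUL2, which serves VHL, at -0.06 on the log2 scale, with adjusted P values of 0.594 to 0.939 (edgeR). CUL2 was at -0.01 without shNT replicate 3 and at -0.11 without shNT replicate 1.

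The RING partners recruit the charged E2 enzyme. RBX1, which joins most cullins, CUL3 among them, was at 40.1, 40.2 and 42.4 CPM in shNT and at 40.0, 42.0 and 43.9 CPM in shARMC5. The groups overlapped, and the log2 fold change was 0.04 (SE 0.05, 95% interval -0.07 to 0.15, adjusted P = 0.775, edgeR). RBX1 was at 0.003 without shARMC5 replicate 3 and at 0.07 without shARMC5 replicate 1. RNF7, also called RBX2, the partner of CUL5, was at 51.5, 54.1 and 55.1 CPM in shNT and at 54.9, 55.2 and 56.9 CPM in shARMC5. Its groups overlapped too, with a log2 fold change of 0.06 (SE 0.04, adjusted P = 0.537, edgeR). Per length, RNF7 at 99.0 ± 1.65 TPM exceeded RBX1 at 56.96 ± 0.65 TPM in shNT (SD, n = 3).

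NEDD8 itself was at 99.8, 101 and 103 CPM in shNT and at 111, 104 and 106 CPM in shARMC5. All shARMC5 values were above all shNT values, but the log2 fold change of 0.08 (SE 0.03, unadjusted P = 0.0347, adjusted P = 0.233, edgeR) was not called. The NEDD8 transcripts share 44.2% of their MANE Select exons with the readthrough gene NEDD8-MDP1, to which at most 72 reads per library were assigned. UBE2F, the NEDD8 E2 enzyme that pairs with RNF7, was at 30.1, 34.5 and 31.8 CPM in shNT and at 33.9, 35.8 and 34.7 CPM in shARMC5. Those groups overlapped, with a log2 fold change of 0.12 (SE 0.06, adjusted P = 0.328, edgeR). Without shNT replicate 1 UBE2F was at 0.07, and without shNT replicate 2 at 0.17. UBE2M, the E2 enzyme that pairs with RBX1, was at 0.06, and the E1 subunits NAE1 and UBA3 were at -0.04 and -0.01 on the log2 scale, none of them called, with UBA3 at -0.13 under the length offset. On the TPM scale NAE1 was at 90.7 to 94.7 in shNT and at 85.8 to 89.8 in shARMC5, which do not overlap, whereas its CPM values did.

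DCUN1 proteins help move NEDD8 from the E2 enzyme to the cullin, and DCUN1D5 was the most abundant of the 5, with 121 ± 5.70 TPM in shNT (SD, n = 3), while DCUN1D3 was lowest with 6.98 ± 1.17 TPM. DCUN1D5 was at 73.9, 76.6 and 74.7 CPM in shNT and at 76.7, 80.7 and 83.1 CPM in shARMC5. The highest shNT and the lowest shARMC5 values nearly met, and the log2 fold change was 0.09 (SE 0.04, unadjusted P = 0.0263, adjusted P = 0.199, edgeR). DCUN1D3, which is held at membranes, was at 20.4, 16.6 and 19.2 CPM in shNT and at 19.0, 20.7 and 21.2 CPM in shARMC5. Its groups overlapped, with a log2 fold change of 0.12 (SE 0.08, adjusted P = 0.464, edgeR). Its value was 0.04 without shNT replicate 2 and 0.19 without shNT replicate 1. DCUN1D1, DCUN1D2 and DCUN1D4 lay between -0.04 and 0.02 on the log2 scale and were not called, with DCUN1D1 at 0.15 under the length offset.

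Of the exchange factors, these cells express CAND1. It was at 317, 320 and 314 CPM in shNT and at 311, 324 and 307 CPM in shARMC5, with overlapping groups and a log2 fold change of -0.01 (SE 0.03, 95% interval -0.07 to 0.05, adjusted P = 0.879, edgeR). CAND2, its paralog known from muscle, had 0 to 8 reads per library, too few for a test. It was at 0.042, 0.051 and 0.023 TPM in shNT and at 0.011, 0.068 and 0.00 TPM in shARMC5, and the groups overlapped. Fewer reads of a gene do not show that it is absent.

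The COP9 signalosome, which cuts NEDD8 from cullins, had 9 members here, 7 with positive and 2 with negative log2 fold changes, between -0.03 and 0.07. None was called, none had an unadjusted P value under 0.05, and the smallest adjusted P value was 0.296 (edgeR). COPS5, the catalytic subunit, was at 66.6, 65.6 and 63.6 CPM in shNT and at 68.7, 66.6 and 68.4 CPM in shARMC5. The lowest shARMC5 value stood just above the highest shNT value, and the log2 fold change was 0.06 (SE 0.04, 95% interval -0.02 to 0.14, adjusted P = 0.471, edgeR). With the length offset COPS5 was at 0.09 in both edgeR and DESeq2, and neither called it. GPS1, the subunit also called CSN1, was at 125, 127 and 127 CPM in shNT and at 134, 129 and 133 CPM in shARMC5, a log2 fold change of 0.06 (SE 0.03, adjusted P = 0.296, edgeR). GPS1 and COPS5 were the members whose groups did not overlap on either scale, CPM or TPM. The share of all genes with groups apart on both scales was not counted, so this says nothing particular about these genes.

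Levels of the 9 listed signalosome genes per length differed widely in shNT. Among these, COPS6, the partner of COPS5 in the catalytic pair, was highest with 217 ± 10.6 TPM, and COPS7B was lowest with 41.1 ± 3.83 TPM (SD, n = 3). COPS9, which is not among the listed members, was at 198 ± 19.0 TPM in shNT, and its values overlapped those of COPS6. COPS6 was at 162, 160 and 158 CPM in shNT and at 168, 155 and 162 CPM in shARMC5, with a log2 fold change of 0.01 (SE 0.03, adjusted P = 0.872, edgeR). COPS7B was at 47.1, 47.2 and 43.4 CPM in shNT and at 44.6, 45.8 and 44.8 CPM in shARMC5, with a log2 fold change of -0.03 (SE 0.05, adjusted P = 0.823, edgeR). The groups of both overlapped. Between them stood COPS3, COPS2, GPS1, COPS8, COPS5, COPS4 and COPS7A in falling order, and the shNT values of COPS3 and COPS2, and of COPS5 and COPS4, overlapped. SENP8, the protease that matures NEDD8, was much lower than any subunit. It was at 5.02, 4.87 and 5.07 CPM in shNT and at 5.94, 4.79 and 4.84 CPM in shARMC5, on 122 to 189 reads. The shARMC5 replicate 1 library was above all shNT libraries and the other shARMC5 libraries were below them, and the log2 fold change of 0.06 (SE 0.14, adjusted P = 0.879, edgeR) carried the widest interval of the set.

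Linkers hold substrate receptors on the cullin. SKP1, which joins F-box proteins to CUL1, was at 268, 266 and 272 CPM in shNT and at 280, 287 and 277 CPM in shARMC5. The groups did not overlap, and the log2 fold change of 0.07 (SE 0.03, unadjusted P = 0.0173, adjusted P = 0.159, edgeR) was not called. SKP1 was the most abundant member per length, with 604 ± 18.1 TPM in shNT (SD, n = 3), ahead of ELOB at 514 ± 20.1 TPM, NEDD8 at 295 TPM and COPS6 at 217 TPM, while DDB1 at 185 TPM and ELOC at 176 TPM, whose shNT values overlapped, came below these. ELOC, the elongin that pairs with ELOB, was at 79.2, 81.7 and 79.6 CPM in shNT and at 80.9, 85.6 and 83.4 CPM in shARMC5. These groups overlapped, with a log2 fold change of 0.06 (SE 0.04, adjusted P = 0.455, edgeR). DDB1, the linker of CUL4A and CUL4B, was at 567, 566 and 553 CPM in shNT and at 581, 567 and 565 CPM in shARMC5, on 14248 to 22362 reads. Those groups overlapped, and the log2 fold change was 0.02 (SE 0.03, 95% interval -0.03 to 0.08, adjusted P = 0.714, edgeR). Exons shared with other genes leave part of the reads uncertain for UBE2F (32.2% of the MANE Select transcript, with UBE2F-SCLY), ELOB (19.5%, with SRRM2 on the opposite strand), COPS5 (15.3%, with PPP1R42) and SKP1 (12.1%, with ENSG00000272772).

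Ratios of TPM between paired members do not depend on the scaling between libraries, and they were compared for 8 pairs. CAND1 to CAND2 gave no ratio, since CAND2 was at 0 in a library. CUL4A to CUL4B was 1.65 ± 0.11 in shNT and 1.57 ± 0.06 in shARMC5 (SD, n = 3). NAE1 to UBA3, the subunits of the NEDD8 E1 enzyme, was 1.68 ± 0.14 in shNT and 1.77 ± 0.20 in shARMC5. RBX1 to RNF7 was 0.58 ± 0.01 in shNT and 0.57 ± 0.02 in shARMC5. In TPM the groups overlapped for all 8 pairs, and two-sided exact permutation tests gave P = 0.3 to 1.0 (adjusted over the 8 pairs 0.933 to 1.0). In CPM, CUL4A to CUL4B was 1.13, 1.16 and 1.082 in shNT and 1.06, 1.04 and 1.079 in shARMC5, which do not overlap (difference of the log2 ratio -0.08, exact permutation P = 0.1, adjusted over the 8 pairs 0.8). The other 7 pairs gave exact permutation P values of 0.2 to 0.9 in CPM. With 3 libraries against 3 the smallest P value is 0.1, so no pair could have been called.

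At the level of transcripts, 198 of the 434 member transcripts in the files had enough reads for edgeR's test. None was called, with a smallest adjusted P value of 0.584, and 10 had an unadjusted P value under 0.05. The share of all transcripts under that unadjusted threshold was not counted, so the 10 cannot be read as more than the background. Over all 49809 transcripts tested, 4 were called (0.00803%), so this test found little anywhere. The MANE Select transcript held the largest share of reads in 21 of the 35 tested genes and not in 14. In CUL3 it held 22.1% of reads in shNT, and ENST00000409096, with 2701 bases, held 73.5%. In CUL4A it held 3.53% and ENST00000451881 80.4%. Salmon divides reads among transcripts that share sequence, and the deposited values carry no error of that division.

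GPS1 had the transcript with the smallest P value. Its MANE Select transcript, ENST00000578552, held 42.4%, 43.4% and 46.4% of GPS1 reads in shNT and 32.6%, 37.8% and 26.5% in shARMC5. Every shARMC5 share was below every shNT share, with a log2 fold change of -0.38 in the transcript fit (SE 0.13, adjusted P = 0.861, edgeR). ENST00000306823 held 23.6%, 25.5% and 20.5% in shNT and 30.2%, 28.2% and 28.7% in shARMC5. Its shares were higher in all 3 shARMC5 libraries, with a log2 fold change of 0.39 (SE 0.10, unadjusted P = 0.00804, adjusted P = 0.584, edgeR). No GPS1 transcript was called, and the sum of the gene's reads differed by the 0.06 given above.

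**Figure D5:**
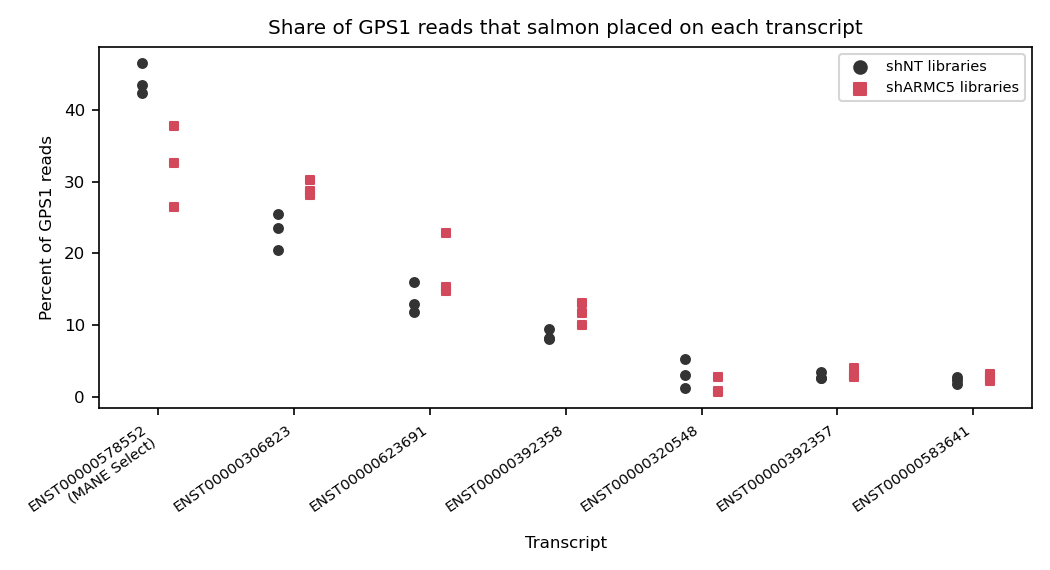
Percent of all GPS1 reads that salmon placed on each of 7 transcripts, in each of the 6 libraries. The MANE Select transcript ENST00000578552 lies lower and ENST00000306823 and ENST00000392358 lie higher in the shARMC5 libraries, and none of these differences passed the test.

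Other genes of cullin-RING ligases, receptors and cofactors outside the listed members, COPS9 among them, were read from the same fit. This list held 74 genes, of which 70 were tested. Of these, 2 were called higher and 3 lower (7.14%), against 7.75% of all genes tested, and with library size as the only scaling 0 were called higher and 3 lower. DTL, the CUL4 receptor for proteins bound to PCNA on chromatin, was higher by 0.14 on the log2 scale (adjusted P = 0.0672, edgeR), and USP15, a deubiquitinase associated with the COP9 signalosome, by 0.12 (adjusted P = 0.0898). ZYG11B, a CUL2 receptor of N-terminal glycine degrons, was called at -0.19 (adjusted P = 0.0283, edgeR), DCAF7, a WD-repeat protein of the DCAF family, at -0.10 (adjusted P = 0.0491), and FEM1B, a CUL2 receptor, at -0.13 (adjusted P = 0.0605). The median log2 fold change of the tested genes of the list was -0.01.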

How the data were processed

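Polyadenylated RNA of 6 libraries was sequenced. Per the labels, the authors used cutadapt 4.2 for trimming and Salmon 1.9.0 for quantification, with hg38 as build. For each transcript the authors deposited an estimated count of reads, TPM, length and effective length, without normalization between libraries, and the transcript set is not given in the sources used here. Transcripts were matched to GENCODE 44 by identifier without version: 165533 of 177456 matched, and the rest, with 2.96% to 3.04% of reads, were left out. The estimated counts of a gene were added up and rounded, and a gene entered the test where 3 or more libraries had 10 or more counts. The test was that of edgeR 4.0.16 (R 4.3.3; quasi-likelihood F test, robust, TMM factors 0.992 to 1.02, condition only, Benjamini-Hochberg, threshold 0.1). Ratios of TPM were compared with exact permutation tests (scipy 1.17.1). Python 3.11.15 with pandas 2.3.3 and numpy 2.4.6 was used for tables.

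Every member was named. Values in each library were given for called members, for CUL3, RBX1, NEDD8, COPS5 and DDB1, for members with groups apart and an unadjusted P value under 0.05, and for the highest and lowest TPM of each role. The members and lists were chosen with earlier results of these data known. Motifs and promoters were chosen after seeing the data. The strand setting of the quantification is not given in the sources used here, so reads of genes that overlap on opposite strands may not be told apart. Counting error limits the precision of genes with few reads. On simulated data of 13554 genes, 196 of them with a log2 change of 1, edgeR recovered 83.2% with 15.5% of calls false, and of 44577 simulated transcripts 10.1% of the changed ones were recovered. Changes as small as those of the members were not simulated. The alternatives were DESeq2 1.42.0, other size factors, a length offset, other filters and thresholds, a replicate block, readthrough reads added to the member, and each library left out.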

Additional observations from a re-analysis of the deposited data

How the results depend on the processing

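The 122 to 189 reads of SENP8 limit the precision of its fold change, and CAND2 had too few reads for one. Replicate numbers are shared by the groups, and the sources used here do not say whether they pair the libraries. Deviations of same-numbered libraries from their group means correlated at -0.01, -0.01 and -0.02 over all genes tested. These correlations weigh genes with few reads like the others, so they cannot show whether the libraries were paired. With a replicate block, 1766 genes were called against 1064, and 4 members against 2, CUL5 (adjusted P = 0.0927, edgeR) and SKP1 (adjusted P = 0.0687, edgeR) added. With a transcript length offset the counts over all genes were 235 in edgeR and 568 in DESeq2, and 0 members were called by either. At an adjusted P value under 0.05, 676 genes were called. Leaving out 1 library gave 536 to 1085 genes, 0 to 2 members and 1 to 5 other cullin-RING ligase genes, with both members lost without shNT replicate 1. The count of 5 other ligase genes was 3 with library size only, 1 with the offset in edgeR, 2 in DESeq2, 1 in DESeq2 with the offset and 2 at 0.05. The members' median log2 fold change was 0.0041 with library size only, 0.040 with the offset in edgeR and 0.039 in DESeq2 with it. With library size only the median of all genes was -0.0155 in place of -0.0014. Leaving out 1 library put the members' median between 0.0107 (without shARMC5 replicate 2) and 0.0288 (without shNT replicate 1). With the offset in edgeR and in DESeq2, UBA3 was at -0.126 and -0.127 and DCUN1D1 at 0.146 in both. The ARMC5 call was kept in every alternative run.

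Of the tested members, 21 kept the sign of their log2 fold change over 15 alternatives and 14 did not, none of them called and all at or under 0.06 in size. With library size only, the sign turned for CUL1 (-0.0069), DCUN1D4 (-0.0079), COPS7A (-0.0081) and COPS8 (-0.0119). With the offset in edgeR and in DESeq2 it turned for CUL2 (0.0144 and 0.0137), DCUN1D2 (0.0177 and 0.0163), DCUN1D4 (-0.0350 and -0.0355), CAND1 (0.0271 and 0.0266), COPS6 (-0.0419 and -0.0429) and COPS8 (-0.0338 and -0.0342). With 1 library left out the values ran from -0.0036 to 0.0225 for CUL1, from -0.0357 to 0.0061 for CUL4A, from -0.0337 to 0.0176 for UBA3, from -0.0030 to 0.0489 for DCUN1D1, from -0.109 to 0.0493 for DCUN1D2, from -0.0178 to 0.0329 for DCUN1D4, from -0.0358 to 0.0026 for CAND1, from -0.0011 to 0.0367 for COPS2, from -0.0288 to 0.0037 for COPS3, from -0.0131 to 0.0464 for COPS6, from -0.0100 to 0.0331 for COPS7A, from -0.0274 to 0.0294 for COPS8 and from -0.0492 to 0.115 for SENP8. For log2 ratios they ran from -0.0203 to 0.0268 for RBX1/RNF7, from -0.0031 to 0.112 for COPS7A/COPS7B and from -0.0416 to 0.0494 for ELOB/ELOC, and NAE1/UBA3 was at -0.0283 with CPM in place of TPM. The cause of these turns was not tested.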

Other observations

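Beside GPS1 and the MANE Select transcript of CUL7, 6 member transcripts had an unadjusted P value under 0.05 in the transcript fit, and none of them was called by edgeR. They are listed as single values, since their number was not compared with that over all transcripts. In COPS7A, ENST00000534947 held 2.89%, 4.97% and 4.76% of the gene's reads in shNT and 7.65%, 7.62% and 8.03% in shARMC5, and was at 0.89 on the log2 scale (SE 0.27, adjusted P = 0.778, edgeR over transcripts). In COPS7B, ENST00000474042 was at -0.72 (SE 0.27, adjusted P = 0.977, edgeR). In CUL2, ENST00000374751 held 32.8%, 38.8% and 32.6% of reads in shNT and 19.0%, 27.1% and 25.8% in shARMC5, at -0.59 on the log2 scale (SE 0.19, adjusted P = 0.824, edgeR). ENST00000626172, also of CUL2, went the other way, with 0, 9.7 and 0 reads in shNT and 98.3, 33.2 and 47.3 reads in shARMC5 (adjusted P = 0.990, edgeR). In SKP1, ENST00000328392 and ENST00000521216 were both at 0.14 on the log2 scale (adjusted P = 0.929 and 0.990, edgeR).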
